A study of Mus musculus with 13 samples.

Results

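Constriction of the aorta in TUDCA-treated mice was followed, 1 week later, by higher transcripts of 10 of 22 cell cycle genes, 7 of 14 collagens and 4 of 19 hypertrophy genes. Over all genes 1.02% were called higher, and a mixed group of genes was lower. Of the 10 cell cycle genes, 4 were detected in fewer than all 3 sham hearts given TUDCA. In a fit of the 7 TUDCA-treated hearts alone each of these counts was 0. The comparison set 4 hearts of the TUDCA-TAC group against 3 hearts of the TUDCA-Sham group, 7 of the 13 hearts in the series. It covered 8336 genes with a symbol in the annotation used and a probe detected on at least 8 of the 13 arrays. Each gene was read by its brightest probe. All mice were male C57BL/6 of 8 to 10 weeks. The TUDCA-TAC hearts (TT1, TT2, TT3 and TT4) had transverse aortic constriction (TAC), and the TUDCA-Sham hearts (TS1, TS4 and TS6) had the sham operation, and both groups were given tauroursodeoxycholic acid (TUDCA) at 300 mg/kg per day by gavage from the day of surgery. The 6 other hearts, 3 of the Veh-TAC group and 3 of the Veh-Sham group, had the same operations with vehicle and are used here for the spread and for the test of whether the responses differed. Both groups of the main comparison carry TUDCA, so it shows the effect of TAC under the drug and not the effect of the drug itself. The labels call the hearts biological replicates of a whole organ. Levels are log2 bead intensities after background correction, a difference of 1 being a doubling.

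A constricted aorta makes the left ventricle eject against a raised pressure. Cardiomyocytes answer by adding sarcomeres and re-expressing fetal genes, while fibroblasts, endothelial cells and macrophages of the organ divide, and fibroblasts lay down collagen and the enzymes that cross-link it. TUDCA is a taurine-conjugated bile acid that eases protein folding in the endoplasmic reticulum (ER). RNA from a whole heart mixes all these cells, and fewer cells of a type and less RNA per cell cannot be told apart.

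The tissue carried its label: the 17 measured cardiomyocyte markers had a mean log2 level of 14.07 to 14.58 across the 7 hearts, whereas 1 of 15 lymphocyte markers and 3 of 9 neutrophil markers were measured at all. Between 11647 and 12791 probes were detected on each of the 13 arrays. The arrays differed in optical background: the median log2 raw intensity of undetected probes was 8.15 and 8.18 on TS1 and TS4, 7.93 to 7.99 on TS6, TT2, TT3 and TT4, and 7.21 on TT1, where signal over background was 19.3 against 6.49 to 8.52 on the other 12 arrays. Among the sham hearts with TUDCA, TS6 was close in background to TT2, TT3 and TT4, and no sham heart was close to TT1. With vehicle the background was 8.19 to 8.21 on the Veh-Sham arrays and 8.14 to 8.18 on the Veh-TAC arrays. The gap in background between TAC and sham arrays was thus wider with TUDCA, and the later comparison of the responses was made across it. The first principal component of the 7 hearts held 42.1% of the variance and set TT1 and TT4, at -25.9 and -24.5, apart from the other 5 at 5.41 to 22.5, and the second held 26.4%.

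At an adjusted p under 0.05, 149 of the 8336 genes (1.79%) passed, 85 higher (1.02%) and 64 lower (0.768%) in TUDCA-TAC than in TUDCA-Sham hearts. With median scaling in place of quantile normalization 202 were higher and 30 lower, the median of all genes then lying at 0.12. At over 1.5-fold and an unadjusted p under 0.05, 519 genes passed (6.23%), 254 higher (3.05%) and 265 lower (3.18%). The 4 TAC hearts did not overlap the 3 sham hearts in 1249 genes (15%). The adjusted calls rested on the spread estimated from all 13 arrays: limma fitted to the 7 hearts alone called 0 genes, its smallest adjusted p being 0.0602, with 1203 genes at an unadjusted p under 0.05. Against TS6 alone, the sham heart nearest in background, limma also called 0 genes in a comparison with 1 sham sample, whose spread was taken from the other groups, with 433 at an unadjusted p under 0.05, although all 149 differences kept their sign. For a gene whose groups do not overlap, that sign was fixed in advance. Without TS1 there were 11 calls, without TS4 37, without TT4 31 and without TT1 239, and without Veh-Sham hearts 3 or 6 there were 92 and 99.

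The largest rise was that of Prc1, which encodes a microtubule-bundling protein of the central spindle needed for cytokinesis. Its log2 level was 6.59, 5.65 and 6.33 in the sham hearts TS1, TS4 and TS6, and 8.81, 9.74, 9.25 and 10.21 in the TAC hearts TT1 to TT4. The groups did not overlap, and every TAC heart lay more than 2 log2 units above every sham heart. The log2 difference was 3.31 ± 0.33 (SE; adjusted p = 0.00159), a fold of 9.94. Prc1 was detected in 2 of the 3 sham hearts, and its log2 difference was 1.57 without background correction and in the authors' table, so the size of the fold rests on the background correction; 24 of 28 alternative settings kept the call.

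Of 22 measured genes of the cell cycle list, 10 were higher in the TUDCA-TAC group and 0 lower, against 1.02% of all genes called higher, and the median log2 difference of the list was 0.78 beside 0.00 over all genes. The median was 0.36 without background correction, with 9 called. Of the 10, 4 were detected in fewer than all 3 sham hearts (Prc1, Birc5 and Aurka in 2, Cdk1 in 0) and entered the test through hearts in which they are high; among the 16 members detected in all 7 hearts 6 were called, with a median of 0.66. The list count was 11 without TT1 and TT4 together, 2 without TS1, 6 without TS4 or without TT4, and 0 against TS6 alone and in the fit of the 7 hearts alone. Cdk1, the kinase that drives entry into mitosis, lay at 5.59, 5.93 and 5.76 in the sham hearts and at 6.75, 7.68, 7.53 and 7.74 in TT1 to TT4. TT1 was the lowest of the TAC hearts, and still above every sham heart. The Cdk1 probe was detected in 0 of the 3 sham hearts, so that only a bound can be given. After the background correction used here, Cdk1 was at least 2.45-fold higher in the TUDCA-TAC group. For each sham array the bound took the higher of the lowest signal of a detected probe and the Cdk1 probe's own signal. It was not computed without that correction. The main fit, which used the undetected sham values as they were, gave an adjusted p of 0.0137. The log2 difference of Cdc20, which activates the anaphase-promoting complex, was 1.62 ± 0.24 (adjusted p = 0.0125).

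The further members of the list that rose each act at a known step of division. They were Cdca3, a mitotic entry factor (1.33 ± 0.18, adjusted p = 0.00809), Birc5, the survivin subunit of the chromosomal passenger complex (1.56, 0.0262), Aurka, a centrosomal kinase (1.11, 0.0472), Kif22, a chromosome-binding kinesin (1.49, 0.0141), Anln, the anillin of the contractile ring (1.59, 0.0141), and the replicative helicase subunits Mcm5 (1.04, 0.0295) and Mcm2 (0.62, 0.0258). Birc5 lay at 5.99, 6.30 and 6.18 in the sham hearts and at 7.15, 8.18, 7.56 and 7.99 in the TAC hearts. Pcna (-0.22, adjusted p = 0.732), the sliding clamp of replication, and Cenpa (0.07, adjusted p = 0.799), the centromeric histone, did not pass. TT1 was the least raised of the TAC hearts in 8 of the 10 genes that rose and in 52 of the 85 genes that rose in all; it was the lowest TAC heart in 31.9% of all genes.

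Of 14 cyclins, their inhibitors and partners, 2 rose (E2f1 and Ccnd1) and 0 fell, against 1.02% of all genes called higher, with a median of 0.22. Uhrf1, of no such list, which keeps DNA methylation in place through replication, lay at 6.19, 6.80 and 7.41 in the sham hearts and at 8.19, 9.20, 8.95 and 9.42 in the TAC hearts, a log2 difference of 2.14 ± 0.35 (adjusted p = 0.0162). E2f1, a transcription factor of the G1/S transition, differed by 1.17 ± 0.20 (adjusted p = 0.0194). Ccnd1, the cyclin D1 that starts the passage through G1, stood at 11.68, 11.85 and 11.93 in the sham hearts and 12.43, 12.69, 12.47 and 12.82 in the TAC hearts (0.78 ± 0.13, adjusted p = 0.0141), and all 3 of its probes rose, by 0.78 to 1.00.

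The H2A histone genes of the chromosomal clusters, transcribed in S phase, moved with them. Of 10 measured, 6 passed and 0 fell, against 1.02% of all genes called higher, with a median of 1.72. H2ac24 stood at 10.45, 10.82 and 11.27 in the sham hearts and at 12.08, 13.31, 12.79 and 13.09 in the TAC hearts (1.97 ± 0.30, adjusted p = 0.0125). These genes are nearly identical in sequence, so their probes cannot be taken as separate genes. The neighbouring families did not follow: 0 of 9 H2B, 0 of 5 H3 and 0 of 6 H4 genes rose, the medians were -0.03, -0.20 and -0.44, and 1 H2B gene, H2bc18, fell (-0.54, adjusted p = 0.0469). This family was picked after its values had been seen.

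**Figure D1:**
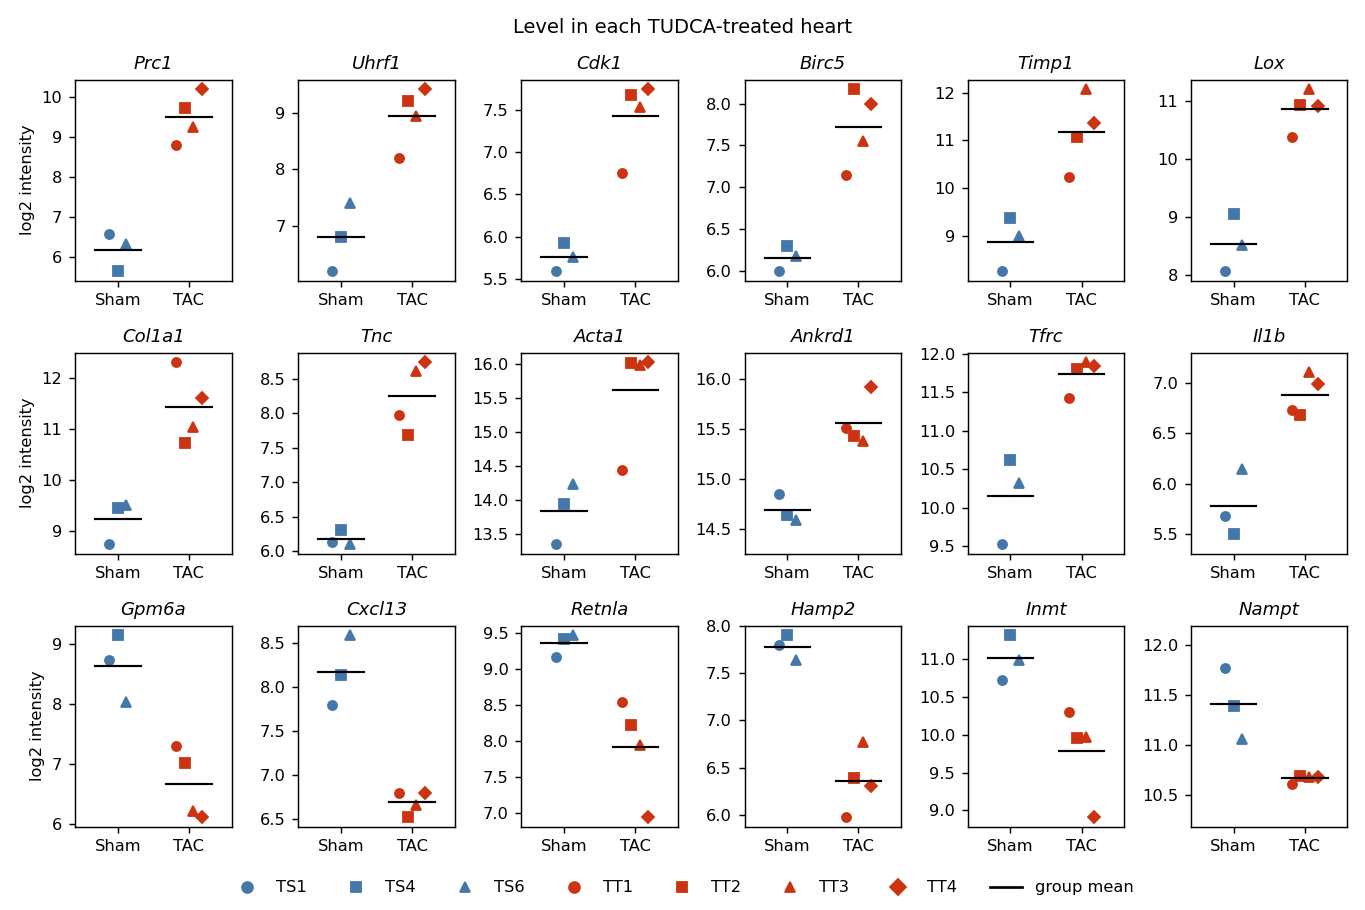
Log2 intensity (y axis) of 18 genes in the 3 TUDCA-Sham hearts (blue) and the 4 TUDCA-TAC hearts (red), with a symbol for each heart and a line for each group mean. In each of the 18 genes the groups do not overlap; among the genes that rose, TT1 (red circle) is the lowest TAC heart for Prc1, Uhrf1, Cdk1, Birc5, Timp1, Lox, Acta1 and Tfrc.

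Promoters of mitotic genes often pair a CCAAT box, bound by NF-Y, with a cell cycle genes homology region, TTTGAA, bound by MuvB complexes. Both words were searched on both strands, so that CCAAT also counts where it reads ATTGG and the homology region where it reads TTCAAA, in the RefSeq windows of GRCm38.p6 from 250 bases before to 50 after the first listed start of each gene. TTTGAA was in the window of 8 of the 10 cell cycle genes that rose and of 1 of the 9 that did not pass and had a window, beside 11.7% of the 6788 tested genes with a window and 2 of 12 collagens. Both words stood in 7 of the 10, beside 4.77% of the tested genes. A match is a description of letters, and binding was not measured. The windows of the 4 that hold both words near the start are shown from 120 bases before it, read 5′ to 3′ in the direction of the gene, with both words in capitals; their first letters lie 32 to 37 bases apart. They lie at chr10:69352903-69353032 (minus strand, Cdk1), chr4:118437334-118437463 (minus strand, Cdc20), chr7:80294331-80294460 (plus strand, Prc1) and chr7:127042411-127042540 (minus strand, Kif22).
Cdk1: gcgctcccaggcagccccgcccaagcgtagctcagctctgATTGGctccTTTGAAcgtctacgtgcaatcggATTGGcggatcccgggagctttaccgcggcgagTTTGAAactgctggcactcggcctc
Cdc20: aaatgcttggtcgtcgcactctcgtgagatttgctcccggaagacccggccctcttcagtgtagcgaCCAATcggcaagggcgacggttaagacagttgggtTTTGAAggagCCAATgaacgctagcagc
Prc1: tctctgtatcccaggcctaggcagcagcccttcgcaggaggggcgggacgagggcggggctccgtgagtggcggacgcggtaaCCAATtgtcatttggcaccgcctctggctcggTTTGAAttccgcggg
Kif22: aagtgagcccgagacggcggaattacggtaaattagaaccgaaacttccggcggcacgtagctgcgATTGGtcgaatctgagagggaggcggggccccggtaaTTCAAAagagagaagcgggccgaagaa
In all 4, in either orientation, the homology word nearest the listed start begins 5 to 18 bases before it and lies downstream of a CCAAT box. The Cdk1 stretch holds each word in 2 places, and that of Cdc20 holds CCAAT in 2.

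The collagen matrix rose in the TUDCA-TAC group. Of 14 measured collagens 7 were higher and 0 lower, against 1.02% of all genes called higher, with a median log2 difference of 0.91. In 11 of the 14 the groups had no overlap, against 6.72% of all genes higher without overlap. The count of called collagens was 7 without TT1, 4 without TS6, 3 without TT2, 1 without TS4 or without TT4, 0 without TS1, 1 without TT1 and TT4 together and 0 against TS6 alone. The list mean was 9.47 to 9.76 in the sham hearts and 10.40 to 10.99 in the TAC hearts. Col1a1, the main chain of fibrillar collagen I, lay at 8.73, 9.45 and 9.50 in the sham hearts and at 12.33, 10.72, 11.04 and 11.62 in TT1 to TT4. The highest heart was TT1, unlike in the cell cycle genes, and the log2 difference was 2.20 ± 0.39 (adjusted p = 0.0221).

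Chains of other collagen types made up the rest of the calls. They were Col5a1 of collagen V (1.204), Col6a1 and Col6a2 of the microfibrillar collagen VI (0.93 and 0.94), Col15a1 and Col18a1 of the basement membrane zone (0.89 and 0.89) and Col16a1 (1.23), with adjusted p of 0.0159 to 0.0490. Col3a1, the collagen III chain, lay at 9.76, 10.97 and 9.87 in the sham hearts and at 10.75, 11.03, 11.28 and 11.20 in the TAC hearts, which overlap through TS4 (0.86 ± 0.26, adjusted p = 0.119). Col4a1 of the basement membrane differed by 1.13 (adjusted p = 0.0766) and did not pass.

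Of 18 genes of collagen processing 3 rose (Lox, Sparc and Pcolce) and 0 fell, with a median of 0.25. Of 14 matrix proteases and inhibitors 1 rose, with a median of 0.33. Over all genes 1.02% were called higher. Lox, the lysyl oxidase that cross-links collagen and elastin, stood at 8.07, 9.05 and 8.51 in the sham hearts and at 10.38, 10.92, 11.20 and 10.90 in the TAC hearts. Its log2 difference of 2.31 ± 0.24 (adjusted p = 0.00159, a fold of 4.95) was kept as a call in 26 of 29 alternative settings. Timp1, an inhibitor of matrix metalloproteinases, stood at 8.26, 9.37 and 9.00 in the sham hearts and at 10.24, 11.06, 12.08 and 11.36 in the TAC hearts (2.31 ± 0.35, adjusted p = 0.0127), and its second probe gave 2.34. Mmp2 (0.72, adjusted p = 0.0955) and Mmp9 (-0.23, adjusted p = 0.608), both gelatinases, did not pass.

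Of 29 matrix proteins other than collagens, 5 rose and 0 fell, against 1.02% of all genes called higher, with a median of 0.47. The count was 1 to 3 without any 1 of the TUDCA hearts other than TT1. Tnc, the tenascin of healing tissue, stood at 6.14, 6.32 and 6.10 in the sham hearts and at 7.98, 7.68, 8.61 and 8.74 in the TAC hearts (2.07 ± 0.22, adjusted p = 0.00165). The sham hearts were tightly grouped and far below the TAC hearts. Eln, elastin, differed by 1.94 ± 0.33 (adjusted p = 0.0175). Sparc, a collagen-binding protein of the processing list, stood at 12.12, 12.73 and 12.49 and at 13.63, 13.61, 13.66 and 13.88 (1.25 ± 0.15, adjusted p = 0.00350). Of 8 markers of activated fibroblasts 3 rose (Tnc, Ddah1 and Meox1), and of 14 fibroblast markers 1 (Col1a1), so whether more fibroblasts or more RNA per fibroblast lies behind the matrix was not tested. Of 24 genes of TGF-beta signalling 0 passed, against 1.79% of all genes. Ccn2, the connective tissue growth factor, differed by 0.65 ± 0.23 (adjusted p = 0.176) and Tgfb1 by 0.22 ± 0.10 (adjusted p = 0.299).

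Of the hypertrophy list, 4 of 19 genes rose and 0 fell, against 1.02% of all genes called higher. The median was 0.49, and the list mean was 11.93 to 12.04 in the sham hearts and 12.19 to 12.75 in the TAC hearts. The count was 0 without TS1 or without TS4, 1 without TT4 and 2 without TS6, TT2 or TT3. Acta1, the skeletal actin of the fetal program, stood at 13.35, 13.95 and 14.24 in the sham hearts and at 14.45, 16.02, 15.99 and 16.03 in TT1 to TT4. TT2, TT3 and TT4 lay within 10% of the highest intensity an array gave, so the log2 difference of 1.78 ± 0.35 (adjusted p = 0.0262) is understated. Nppa, the atrial natriuretic peptide, was that bright in all 7 hearts, and no fold is given. Nppb, the B-type natriuretic peptide, stood at 14.31, 15.24 and 15.48 in the sham hearts and at 14.67, 15.94, 15.86 and 15.94 in the TAC hearts, which overlap through TT1 (0.59 ± 0.31, adjusted p = 0.384).

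The stretch-responsive muscle proteins Ankrd1, Ankrd23 and Fhl1 passed. Ankrd1, an ankyrin repeat protein that shuttles between titin and the nucleus, stood at 14.85, 14.64 and 14.59 and at 15.51, 15.43, 15.38 and 15.92 (0.86 ± 0.15, adjusted p = 0.0174). Its relative Ankrd23 stood at 11.37, 11.29 and 11.30 in the sham hearts and at 12.19, 12.55, 12.34 and 13.34 in the TAC hearts (1.29 ± 0.26, adjusted p = 0.0295), and Fhl1, a LIM-domain protein that binds titin, differed by 0.67 ± 0.13 (adjusted p = 0.0262). Outside the list, Mybpc2, the fast skeletal myosin-binding protein C, differed by 1.65 ± 0.29 (adjusted p = 0.0213) and Myot, the Z-disc protein myotilin, by 0.67 ± 0.13 (adjusted p = 0.0258). Myh7, the slow fetal myosin heavy chain, differed by 1.01 (adjusted p = 0.249). The mean of the 17 cardiomyocyte markers was 14.58 in TT1 and 14.50 in TT4 and 14.07 to 14.27 in the other 5 hearts, with 0 of 17 called, and the part of that difference between hearts in these results was not tested.

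Genes of iron handling moved in both directions. Tfrc, the receptor by which cells take up transferrin iron, stood at 9.53, 10.63 and 10.33 in the sham hearts and at 11.42, 11.80, 11.90 and 11.85 in the TAC hearts (1.58 ± 0.30, adjusted p = 0.0253). Hamp, the iron-regulating peptide hepcidin, stood at 11.77, 11.89 and 11.70 in the sham hearts and at 10.31, 10.80, 11.33 and 10.47 in the TAC hearts (-1.06 ± 0.23, adjusted p = 0.0424). Hamp2, its paralog, fell by 1.42 ± 0.21 (adjusted p = 0.0125), and since the sequences are alike the probes may share targets. Bmp6, an inducer of hepcidin in the liver, fell by 0.84 ± 0.19 (adjusted p = 0.0490). These genes were brought together after their values had been seen.

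Immune genes also split. Il1b, the cytokine interleukin 1 beta, stood at 5.68, 5.50 and 6.15 in the sham hearts and at 6.74, 6.68, 7.11 and 6.995 in the TAC hearts (1.11 ± 0.18, adjusted p = 0.0162). Ch25h, which makes 25-hydroxycholesterol, rose by 1.27 ± 0.18 (adjusted p = 0.0115). Cxcl13, the chemokine that draws B cells, stood at 7.79, 8.14 and 8.59 in the sham hearts and at 6.80, 6.52, 6.66 and 6.79 in the TAC hearts. All 4 TAC hearts lay close together and below the lowest sham heart (-1.48 ± 0.21, adjusted p = 0.0116). Retnla, a resistin-like protein of alternatively activated macrophages, stood at 9.18, 9.42 and 9.48 and at 8.54, 8.23, 7.94 and 6.94 (-1.45 ± 0.32, adjusted p = 0.0469).

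Cd207, the langerin of dendritic cells (-1.19, adjusted p = 0.0424), and Tbc1d10c, an inhibitor of calcineurin and Ras signalling (-1.08, adjusted p = 0.0125), fell as well. None of the 16 measured macrophage markers passed, against 1.79% of all genes. Their median was 0.22, and their mean was 9.24 to 9.62 in the sham hearts and 9.43 to 9.74 in the TAC hearts. Of 25 chemokines and their receptors, Cxcl13 was the 1 that passed, and of 24 interferon-induced genes 0 passed, with a median of 0.30 and 7 of 24 higher without overlap, against 6.72% of all genes. The mean of the interferon list was 9.83 in TT1 and 10.05 in TT4, the hearts set apart by the first component, against 9.51 and 9.47 in TT2 and TT3 and 9.35 to 9.40 in the sham hearts.

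Among the other falls, Gpm6a, a membrane glycoprotein of neurons, stood at 8.72, 9.15 and 8.03 in the sham hearts and at 7.30, 7.01, 6.22 and 6.11 in the TAC hearts (-1.97 ± 0.35, adjusted p = 0.0210), the largest fall of the 64. The epicardial marker Upk3b stood at 10.04, 10.18 and 9.41 in the sham hearts and at 9.37, 7.47, 7.54 and 7.74 in the TAC hearts (-1.84 ± 0.44, adjusted p = 0.0582), where TT1 was close to TS6. All 5 measured mesothelial markers were lower (median -0.61, 0 called), with a list mean of 8.12 to 8.83 in the sham hearts and 7.24 to 8.37 in the TAC hearts. All 4 adipocyte markers were lower too (median -0.997, 0 called; 8.60 to 10.06 against 7.90 to 8.95).

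The 6 atrial markers had a mean of 14.71 to 14.77 in the sham hearts and 14.18 to 14.40 in the TAC hearts, and 5 of the 6 were lower without overlap, against 8.27% of all genes. Of these Stard10 was called (-0.91 ± 0.20, adjusted p = 0.0485), and Myl7, the atrial myosin light chain, differed by -0.71 (adjusted p = 0.0719). In the vehicle hearts the medians of the atrial, mesothelial and adipocyte lists were -0.30, -0.37 and -0.60. How much atrium, epicardium or fat each heart sample held was not recorded in the labels, and its part in the falls was not tested.

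**Figure D2:**
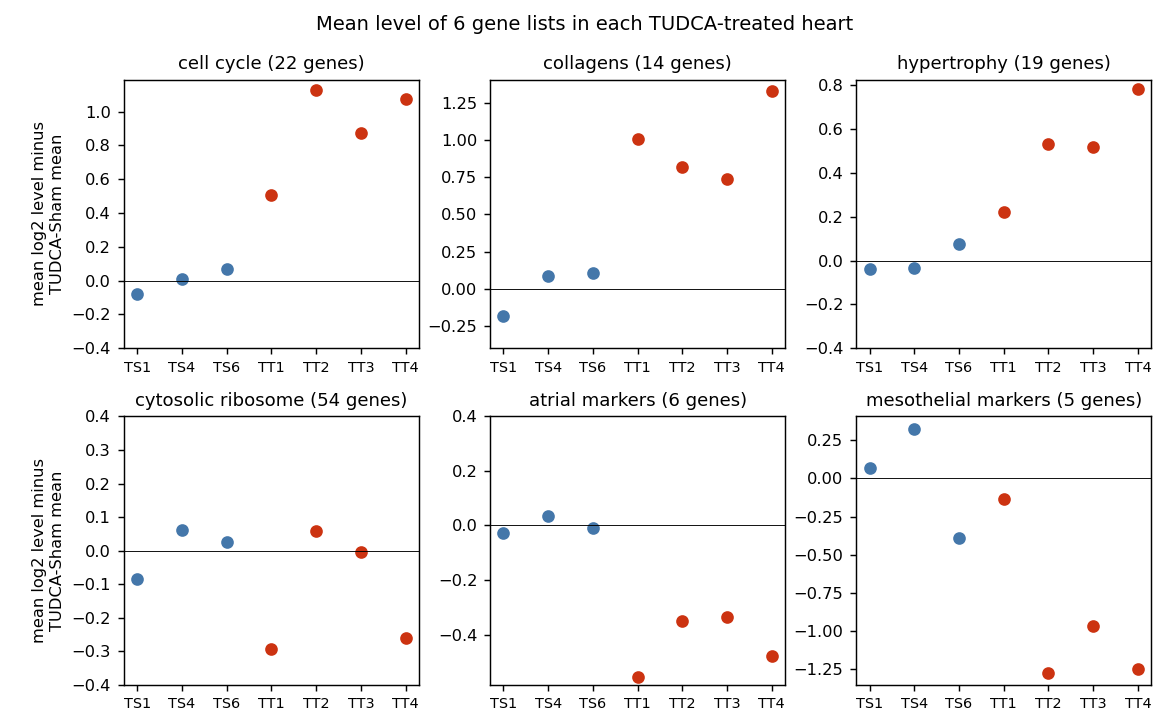
Mean log2 level of 6 gene lists in each of the 7 hearts (y axis), less the mean of the 3 TUDCA-Sham hearts (blue; TUDCA-TAC hearts red), with the number of genes in each title. Every TAC heart is above every sham heart for the cell cycle, the collagens and hypertrophy and below every sham heart for the atrial markers; the cytosolic ribosome is lowest in TT1 and TT4, and the mesothelial markers of TT1 overlap the sham hearts.

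Several metabolic and mitochondrial genes fell singly. Nampt, the enzyme that salvages nicotinamide for NAD, stood at 11.77, 11.39 and 11.06 in the sham hearts and at 10.61, 10.70, 10.69 and 10.68 in the TAC hearts (-0.74 ± 0.14, adjusted p = 0.0253), a narrow band below a wide one. Mrps15 and Mrpl39, proteins of the mitochondrial ribosome, fell by 0.66 ± 0.13 and 0.89 ± 0.17 (both adjusted p = 0.0262). They were 2 of 71 measured genes of that ribosome, against 0.768% of all genes called lower. Inmt, a methyltransferase, fell by 1.22 ± 0.26 (adjusted p = 0.0403), Mccc1 of leucine breakdown by 0.95 ± 0.21 (adjusted p = 0.0469, with TT4 just above TS6), and Nol3, an apoptosis repressor of muscle, by 0.64 ± 0.13 (adjusted p = 0.0322). Ddit4, an inhibitor of mTORC1, fell by 0.74 ± 0.16 (adjusted p = 0.0460), and its TAC values of 8.51 to 8.60 were close together. Several falls were kept as calls in fewer than 14 of 29 alternative settings. These were Cd207, Ddit4 and Stard10 in 10, Mccc1 and Cyfip2 in 11, and Hamp and Retnla in 13. Zbtb8os, a further called fall, was kept in 8 of 28. Among the called rises, C1qtnf3 was kept in 10 and H2ac7 in 12 of 28, and Hspa1l and Bdh1 in 13 of 29.

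No gene of several large metabolic lists passed. Only 0.768% of all genes were called lower, so the absence of calls in lists of this size says little. Of 32 genes of fatty acid oxidation 0 were called, the median log2 difference was -0.15, and 8 of 32 were lower without overlap, against 8.27% of all genes. The median of the same genes with vehicle was -0.65, with 19 of 32 called lower, against 12.5% of all genes. The test of the difference called 2 of the 32, higher with TUDCA, against 0.852% of all genes. Hadh, a dehydrogenase of beta-oxidation, stood at 9.16, 8.97 and 8.45 in the sham hearts and at 8.01, 8.16, 8.18 and 8.04 in the TAC hearts (-0.76 ± 0.18, adjusted p = 0.0542). In 25 genes of the citric acid cycle and pyruvate dehydrogenase, 33 of respiratory complex I and 15 PPAR-alpha targets 0 were called, with medians of -0.06, -0.08 and -0.15.

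The chaperones of the ER showed no call. Of all genes 1.79% were called in either direction, so the absence of calls in this list says little. Of 26 ER chaperones and partners 0 passed, the median was -0.02, and their mean was 10.54 to 10.64 in the sham hearts and 10.40 to 10.56 in the TAC hearts. Hspa5, the chaperone GRP78, stood at 8.93, 9.00 and 8.51 in the sham hearts and at 6.75, 8.26, 8.08 and 7.85 in the TAC hearts, with no overlap and the lowest value in TT1 (-1.08 ± 0.34, adjusted p = 0.127). Hsp90b1, the chaperone GRP94, differed by -0.10 ± 0.17 (adjusted p = 0.815), and Ddit3, the transcription factor CHOP, by 0.35 ± 0.23 (adjusted p = 0.497). Hspa1l, a cytosolic chaperone of the heat shock protein 70 family, rose by 0.84 ± 0.19 (adjusted p = 0.0490), 1 of 21 in its list.

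The response was then set against that of the vehicle hearts, in which 2083 genes (25%) were called between Veh-TAC and Veh-Sham. Of the 149 genes called with TUDCA, 100 were also called with vehicle in the same direction (67.1% of the TUDCA calls and 4.8% of the vehicle calls), 75 higher and 25 lower. The test of the difference between the responses called 178 genes of 8336 (2.14%), 71 higher (0.852%) and 107 lower (1.28%) with TUDCA, and 9 of the 149. Of the 48 genes called with TUDCA and not with vehicle, 2 passed the test of the difference, Cxcl13 and Snapc1, so for the rest no difference between the treatments was shown.

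The cell cycle list was called higher in 10 genes with TUDCA and in 11 with vehicle, and whether the responses were equal was not shown. The list median was 0.78 with TUDCA and 0.62 with vehicle, and Prc1 differed between the responses by 0.39 (95% interval -0.67 to 1.46, adjusted p = 0.706). The log2 differences with TUDCA and with vehicle were 1.62 and 1.68 for Cdc20, 1.56 and 1.23 for Birc5, 1.04 and 0.59 for Mcm5, and 1.59 and 2.60 for Anln, whose difference of -1.003 (interval -1.82 to -0.18) did not pass (adjusted p = 0.165). Mcm2 went opposite ways: it rose by 0.62 with TUDCA and differed by -0.43 (adjusted p = 0.0259) with vehicle, and the difference of 1.05 passed (adjusted p = 0.0209).

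Matrix genes rose less with TUDCA in several cases. The response of Lox was 2.31 with TUDCA and 4.14 with vehicle, a difference of -1.84 (95% interval -2.59 to -1.09, adjusted p = 0.0316). The difference was -1.85 for Col3a1 (interval -2.69 to -1.01, adjusted p = 0.0429) and -1.63 for Ddah1, which breaks down an inhibitor of nitric oxide synthase (interval -2.47 to -0.80, adjusted p = 0.0494). For Col1a1 it was -0.78 (interval -2.04 to 0.47, adjusted p = 0.493) and for Timp1 -0.81 (interval -1.93 to 0.32, adjusted p = 0.426), so neither a smaller nor an equal response was shown for them. The medians with TUDCA and with vehicle were 0.91 and 1.27 for collagens, 0.47 and 1.14 for the other matrix proteins and 0.70 and 1.93 for markers of activated fibroblasts.

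Among genes that passed the test of the difference, the 5 largest negative differences were in secreted or membrane proteins. Of these, 4 did not pass with TUDCA. Sfrp2, a secreted modulator of Wnt signalling, differed between TAC and sham by 0.31 with TUDCA and 3.06 with vehicle (difference -2.75, adjusted p = 0.0118). Nox4, an oxidase that makes hydrogen peroxide, stood at 7.72, 7.90 and 7.50 in the TUDCA-Sham hearts and at 8.26, 7.91, 7.51 and 7.96 in the TUDCA-TAC hearts, which overlap (0.21 with TUDCA, 2.82 with vehicle, difference -2.62, adjusted p = 0.0118). Matn4, a matrilin of cartilage matrix (0.21 and 2.84), and Ptn, the heparin-binding growth factor pleiotrophin (0.84 and 3.43), had differences of -2.63 and -2.60. The fifth was C1qtnf3, a secreted protein of the C1q family (1.63 and 4.02, difference -2.39, adjusted p = 0.0447), which was called in both treatments.

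Among genes that passed the test of the difference, the 5 largest positive differences were in genes that fell with vehicle. Ces1d, a carboxylesterase that cleaves stored lipid, stood at 14.26, 14.42 and 14.31 in the TUDCA-Sham hearts and at 13.70, 13.49, 13.72 and 13.23 in the TUDCA-TAC hearts (-0.79 with TUDCA, adjusted p = 0.0783; -2.48 with vehicle; difference 1.68, adjusted p = 0.0316). The others were Sh3gl2, the endocytic protein endophilin A1 (0.58 and -1.29), Ano10, an anoctamin (-0.92 and -2.69), Ky, a muscle peptidase of the Z-disc (0.02 and -1.65), and Srrm4, a splicing regulator of neurons (-0.01 and -1.52). The count of called differences moved from 8 without Veh-TAC heart 9 to 401 without Veh-TAC heart 3 among the 13 fits that left out 1 heart, stayed within 1.5 times of 178 in the fit without TT4 alone, fell to 93 without TT1 and TT4 together and to 40 with array background as a term, and was 0 against TS6 alone, where 870 genes had an unadjusted p under 0.05.

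**Figure D3:**
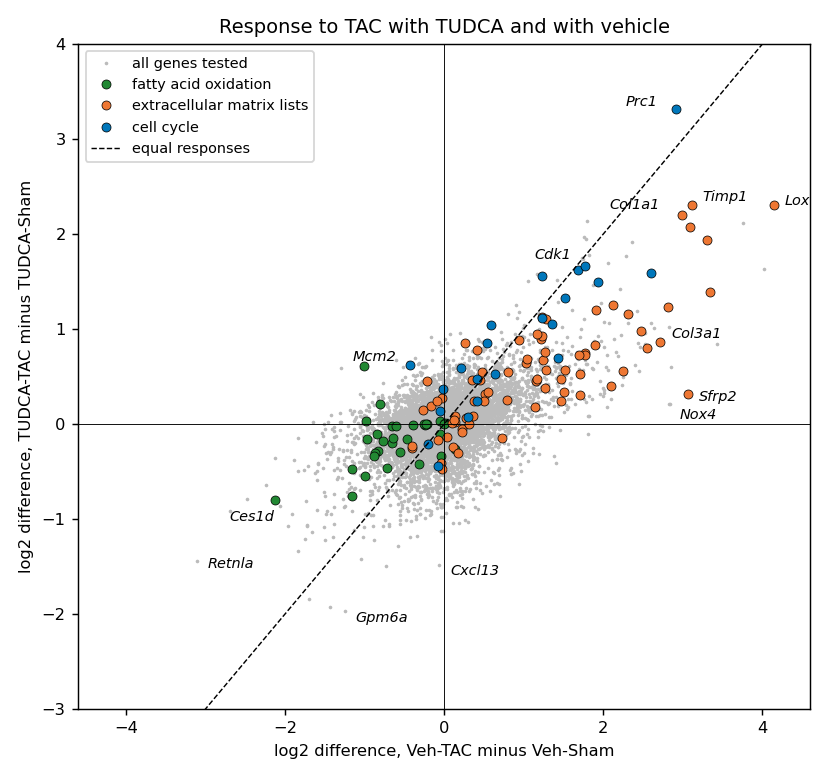
Log2 difference of each of 8336 genes between TAC and sham with vehicle (x axis) and with TUDCA (y axis), with 3 groups of lists in colour and a dashed line where both are equal. Prc1 of the cell cycle (3.31 with TUDCA, 2.92 with vehicle) lies closer to the line than Lox of the matrix (2.31 and 4.14), which lies below it.

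**Figure D4:**
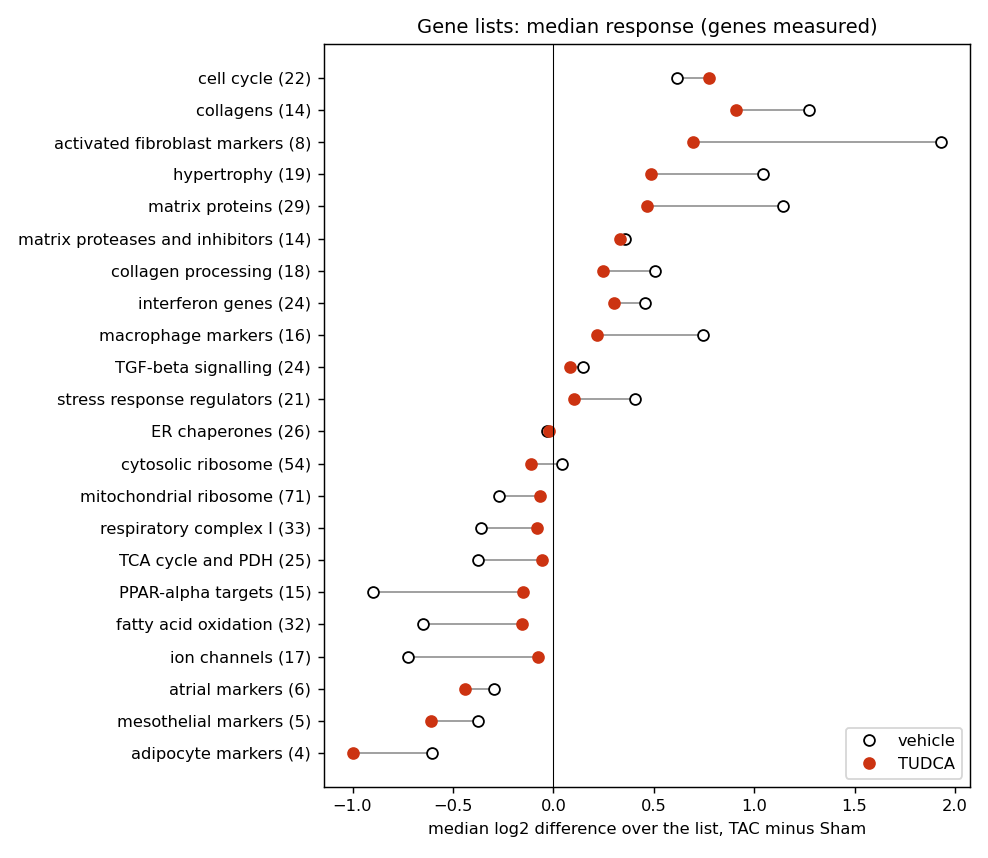
Median log2 difference between TAC and sham over 22 gene lists, with TUDCA (filled) and with vehicle (open), with the number of measured genes in brackets. The median with TUDCA is the smaller in size for fatty acid oxidation (-0.15 against -0.65) and the larger for the cell cycle (0.78 against 0.62); no test was made on medians.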

How the data were processed

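Total RNA of each heart was amplified, labelled with biotin and hybridized to an Illumina MouseRef-8 v2 array of its own, read out with GenomeStudio v2011.1. The authors deposited raw bead intensities of 25697 probes with a detection p-value for each, and a normalized log2 table of 11732 probes, which matched a quantile normalization of the raw values to within 0.119; it served as an alternative. The software of that normalization is not given in the sources used here. Intensities were background-corrected with limma 3.58.1 in R 4.3.3 (normexp through detection p-values, offset 16), quantile-normalized and taken to log2, an offset that shrinks the folds of dim genes. Of 13557 probes detected (p under 0.05) on at least 3 arrays, 11078 carried a symbol in the annotation used. The probe of highest mean stood for each of 8336 genes. That annotation named 11078 probes in all, and the authors' table gave the same number of genes, 8336. Probes of the authors' table were detected on at least 8 arrays and all others on at most 7. The working filter was therefore detection on at least 8 of the 13 arrays, and genes detected on fewer were not tested. A model of 4 group means was fitted to the 13 arrays with limma (eBayes), with Benjamini-Hochberg adjustment over all genes; the p-values measure the spread between these hearts, and their number limits the precision. The fit was tested on simulated data. Alternatives changed the samples, background, normalization, filter, probe rule, moderation and weights, and left out each heart.

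Genes were named by rule: the 15 largest rises and 15 largest falls without overlap among called genes, per list, at most 2 called genes each way by smallest p, over 47 function and 13 cell type lists (where none was called, the gene of smallest p), genes the article names, and the 5 largest differences each way. Cdk1, Cdc20, Aurka, Kif22, Anln, Mcm5, Mcm2, Pcna, Cenpa, H2bc18, the further collagens, Pcolce, Meox1, Myh7, Ankrd23, Mybpc2, Myot, Tfrc, Bmp6, Il1b, Ch25h, Myl7, Nampt and Snapc1 fall outside it and were chosen after their values were seen. The largest differences each way were taken among genes called in the test of the difference. The members and lists were chosen with earlier results of these data known. Promoter windows were read with Python 3.11.15. Probes with no symbol in the annotation used were not analysed here by name.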

Additional observations from a re-analysis of the deposited data

Results flagged for a closer look

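In 6 of the 117 named genes (5.13%) 1 heart of the 4 in the TUDCA-TAC group stood apart from the other 3 by more than Dixon's critical share of the range. Chance gives this in about 1 in 20 groups for independent genes not chosen by their values. The named genes are neither, so no conclusion is drawn from the number, and the cause was not tested. TT1 was the lowest heart for Acta1 (log2 level 14.45), Nppb (14.67) and Smad2 (9.07) and the highest for Upk3b (9.37) and C2, a complement component (9.11). TT1 also had the lowest array background (7.21), and for Acta1 the other 3 hearts lay near the highest intensity. TT4 was the highest heart for Col6a1 (12.91).

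The response to TAC differed between the treatments, by the test of the difference itself, in 16 named genes. Over all genes 178 of 8336 (2.14%) passed that test. Sfrp2, Matn4, Nox4, Ptn, C1qtnf3, Sh3gl2, Ano10, Ces1d, Ky and Srrm4 were named by rule for a large called difference in this same test. Their passing was fixed in advance, so no conclusion is drawn from the number 16. Nox4 is also a gene the article names. The response with TUDCA minus that with vehicle was negative on the log2 scale for Sfrp2 (-2.75), Matn4 (-2.63), Nox4 (-2.62), Ptn (-2.60), C1qtnf3 (-2.39), Col3a1 (-1.85), Lox (-1.84), Ddah1 (-1.63), Cxcl13 (-1.42) and Nupr1, a stress-induced chromatin protein (-1.25). It was positive for Sh3gl2 (1.88), Ano10 (1.77), Ces1d (1.68), Ky (1.68), Srrm4 (1.51) and Acot1, an acyl-CoA thioesterase (1.32).

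Outside the named genes, 2479 detected probes had no symbol in the annotation used. Of these, 53 passed the adjusted threshold between TUDCA-TAC and TUDCA-Sham, 41 higher and 12 lower. That annotation named 11078 probes in all, so a missing symbol does not mean that the probe has no known gene.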

How the results depend on the processing

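All 149 differences kept their sign under each of the 29 alternatives in which the gene was tested, but in many of these the sign was fixed in advance. The fit of the 7 hearts alone, the methods' t-test, the trended moderation and the fits without a vehicle heart leave the log2 difference unchanged. The fit with no filter on dim probes repeated the main fit. Where the groups do not overlap, leaving out a heart cannot turn the sign. The number of calls was 232 with median scaling (202 higher, 30 lower, beside 85 and 64; this scaling moved the median of all genes to 0.12), 431 with array weights, 0 in the fit of the 7 hearts alone, 0 with the methods' t-test after Benjamini-Hochberg (1049 genes at an unadjusted p under 0.05), 0 against TS6 alone, a comparison chosen after seeing the data, and 11 to 239 when 1 heart was left out. The count past 1.5-fold and an unadjusted p of 519 became 118 without background correction, 117 in the authors' normalized table and 272 against TS6 alone; the methods' t-test gave 367. The count of differences between the responses of 178 became 279 without background correction, 277 in the authors' table, 892 with array weights, 40 with array background as a term, 93 without TT1 and TT4 together, 0 against TS6 alone and 8 to 401 when 1 heart was left out. Whether the replicate numbers pair the hearts was not settled. After removal of the group means, same-numbered TUDCA hearts correlated at -0.381 to 0.405 by the numbers of the GEO description. By those of the title they correlated at -0.302 and 0.352. In groups this small such values offset one another, so mixed signs cannot exclude a pairing. With the replicate block by the description there were 223 calls and 89 differences, and with the block by the title 5 calls, 840 past 1.5-fold and 0 differences (876 genes at an unadjusted p under 0.05).

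Of the 48 named genes that were called, 0 kept the call in the fit of the 7 hearts alone, with the methods' t-test or against TS6 alone, 4 with the block by the title, 7 without TS1, 15 without TS4 and 17 without TT4, whereas 31 kept the call with array background as a term, 42 with median scaling, 43 in the authors' table and 31 without TT1 and TT4. Of the 68 that were not called, 13 turned sign in 31 of 1965 values. These were Matn4 at -0.20 and Ky at -0.37 with array background as a term; Matn4 at -0.075, Tgfb2 at -0.057 and Ky at -0.20 with array weights; Calr at -0.063, Matn4 at -0.17, Tgfb2 at -0.16 and Ky at -0.12 against TS6 alone; Bbc3 at -0.050 and Tgfbr1 at -0.16 with the mean of all probes; Srrm4 at 0.10 and Smad2 at 0.040 with median scaling; Matn4 at -0.019 and Ky at -0.22 with the block by the description; Srrm4 at 0.075 and Hsp90b1 at 0.073 with the block by the title; and Ddit3 at -0.052, Matn4 at -0.00069, Tgfb2 at -0.028, Tgfbr2 at -0.0125 and Ky at -0.29 without TT1 and TT4. Leaving out 1 heart gave -0.019 to 0.40 for Matn4, -0.17 to 0.37 for Nkg7, -0.0027 to 0.20 for Smad3, -0.22 to 0.18 for Ky, -0.15 to 0.16 for Srrm4 and -0.19 to 0.024 for Hsp90b1. The cause was not tested.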

Other observations

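No gene of the smooth muscle and calcium lists passed. Of all genes 1.79% did, so the absence of calls in these short lists says little. Of 13 smooth muscle and pericyte markers 11 had a positive difference, with a median of 0.31 (-0.34 with vehicle) and 0 called. Of 16 calcium handling genes 11 had one, with a median of 0.20 (-0.23 with vehicle) and 0 called. The test of the difference between the responses called 0 genes of either list, against 2.14% of all genes, so no difference between the treatments was shown. The calcium list mean was 11.09 in TT1 and 10.95 in TT4 but 10.68 and 10.72 in TT2 and TT3, within the 10.66 to 10.74 of the sham hearts. The smooth muscle list mean was 10.02 in TT1, 9.65 to 9.76 in the other TAC hearts and 9.43 to 9.61 in the sham hearts. Itga7, the laminin-binding integrin of muscle, lay at 9.93, 9.70 and 9.91 in the sham hearts and at 10.47, 10.27, 10.30 and 10.23 in the TAC hearts (0.47 ± 0.12, adjusted p = 0.0628), and Kcnq1, a potassium channel of repolarization, differed by 0.42 ± 0.11 (adjusted p = 0.0730).

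Among the genes with no list, Kazald1, a secreted protein with an insulin-like growth factor binding domain, fell by 1.06 ± 0.20 (adjusted p = 0.0258), with a detected probe in 1 of the 4 TAC hearts and in all 3 sham hearts. Cyfip2, a subunit of the WAVE complex of actin assembly, fell by 1.13 ± 0.24 (adjusted p = 0.0406), and differed by -0.02 with vehicle. The difference between the responses, -1.11, did not pass its test (adjusted p = 0.116), and 11 of 29 alternative settings kept the call with TUDCA. The 2 probes of Ube2z, a ubiquitin-conjugating enzyme, went opposite ways, at -1.12 and 0.70. The 54 cytosolic ribosomal protein genes had a list mean of 13.53 in TT1 and 13.56 in TT4 and of 13.74 to 13.88 in the other 5 hearts, and the 4 erythroid markers 11.12 and 10.997 against 11.69 to 12.39.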
